A study of Mus musculus with 6 samples.

Results

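The response of peritoneal macrophages to tumour necrosis factor alpha (TNF) was compared between mice lacking TIARP, encoded by Steap4, and wild-type mice. For every probe the quantity studied was a difference of 2 differences, namely the change with TNF in knockout (KO) cells minus the change with TNF in wild-type (WT) cells. It was taken on the log2 scale over the 4 macrophage arrays of a series of 6. It was measured for a probe only if the deposited files marked that probe as well above background on all 4 arrays, which held for 30176 of 55680 probes and for 21775 of 34740 genes. A positive value means that the gene's change with TNF was more upward, or less downward, in KO cells.

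The 4 groups were KO macrophages with TNF, KO macrophages, WT macrophages with TNF and WT macrophages, with 1 array each. KO cells carried the genotype TIARP-/- and WT cells TIARP+/+, both on the C57BL/6 strain. All cells were taken from the peritoneal cavity 3 days after thioglycollate, an irritant that draws leukocytes there, from 3 mice per genotype, and the TNF groups were stimulated for 24 hours. The labels number the mice behind an array but do not say in words that their RNA was pooled, and they give no TNF dose, no age and no culture time for the cells without TNF. The remaining 2 arrays held Ly6G+ cells from the spleen, KO and WT, and served here only to show which genes neutrophil preparations carry.

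TNF binds receptors on the macrophage surface and activates the transcription factor NF-kB, which drives chemokines, cytokines and its own inhibitors. Macrophages answer with secreted attractants for neutrophils and monocytes, enzymes that make nitric oxide or itaconate, and a loss of several resident-cell genes. TIARP is a membrane metalloreductase of the STEAP family, which reduces iron and copper, and its gene was named for its induction by TNF in fat cells.

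With 1 array per group there is no replicate error, and nothing could be tested. Genes are called higher or lower where the difference of responses was at least 2-fold, 1 on the log2 scale. In the same way "rose" and "fell" stand for a change of at least 2-fold with TNF. The errors printed after ± come from the scanner software's error model for single spots, with a median of 0.29 over the measured genes. The smallest error was also 0.289, so ± 0.29 is the lowest value the model gave and was not measured gene by gene. The model's settings include a multiplicative error of 10%. Repeated spots of the same probe had a median SD of 0.064 to 0.07 on the log2 scale on the macrophage arrays. The errors stand for technical scatter on the array only, not the spread between mice. Levels are given as relative signal, the spot intensity as a percent of the array's 75th percentile over gene probes.

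Before the values, promoter stretches are shown for a few genes of the lists described below, picked because their windows hold the element searched for. The sequences are from RefSeq on build GRCm38.p6, each 100 bases long, read 5′ to 3′ on the gene's strand and ending before the annotated start. The first 3 lines are chemokine genes whose responses were smaller in KO cells, with the site of NF-kB in capitals, searched as GGGA, any base and TTTCC.
Cxcl2: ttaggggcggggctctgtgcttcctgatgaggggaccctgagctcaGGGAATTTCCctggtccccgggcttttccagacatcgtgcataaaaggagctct
Cxcl3: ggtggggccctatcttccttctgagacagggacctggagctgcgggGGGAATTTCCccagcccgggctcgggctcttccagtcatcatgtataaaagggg
Cxcl1: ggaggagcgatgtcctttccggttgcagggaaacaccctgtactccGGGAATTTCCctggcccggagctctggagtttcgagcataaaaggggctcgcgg

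They lie on the + strand at chr5:90903756-90903855 (Cxcl2), chr5:90785982-90786081 (Cxcl3) and chr5:90891128-90891227 (Cxcl1), and the capitals begin 97, 73 and 71 bases before the start. All 3 chemokine genes carry the same 10 letters in the same orientation. The next pair are interferon-stimulated genes whose differences of responses were among the most positive of their list, with the interferon-stimulated response element in capitals, searched on either strand as GAAA, any 2 bases and GAAA.
Oas3: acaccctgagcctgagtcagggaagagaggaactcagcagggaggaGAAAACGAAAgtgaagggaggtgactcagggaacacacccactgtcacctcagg
Ifit3: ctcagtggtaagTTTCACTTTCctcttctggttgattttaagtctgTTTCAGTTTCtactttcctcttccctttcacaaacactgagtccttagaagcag

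Oas3 lies on the - strand at chr5:120777681-120777780 and Ifit3 on the + strand at chr19:34583361-34583460, and Ifit3 holds 2 copies. The last line is Chac1, a stress-response gene with a larger response in KO cells, on the + strand at chr2:119351003-119351102, with the CCAAT-enhancer-ATF response element TGATGNAA in capitals.
Chac1: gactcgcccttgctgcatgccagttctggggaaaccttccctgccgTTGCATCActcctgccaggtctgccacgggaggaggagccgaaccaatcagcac

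Both strands of the full promoter windows, 250 bases before to 50 after each start, were searched, overlaps with other motifs included, and 11720 of the 21775 measured genes had a window. The NF-kB letters were in 0.411% of all 32851 windows and in those of 3 of 5 ELR chemokine genes with a window, the unmeasured Cxcl15 among the 5. The interferon element was in 3.44% of all windows and in those of 14 of 26 interferon-stimulated genes, with no match in the window of Irf7, the gene with the largest difference of that list. The stress element was in 3.97% of all windows and in those of 5 of 17 integrated stress response genes. Among genes past 2-fold, the interferon element was in 7 of 140 higher and 3 of 82 lower genes with a window, against 3.92% of the measured genes with one. The NF-kB letters were in 1 of 140 higher and 2 of 82 lower genes, against 0.58% of the measured genes with a window. The stress element was in 8 of 140 and 2 of 82, against 3.04%. The antioxidant response element, searched as TGAC, any 3 bases and GC, was in 14 of 140 and 16 of 82, against 16.2%. It was in 7 of 19 genes of the NRF2 list below, with no match in the window of Nqo1. A gene counts where any of its windows matches, so the shares of all 32851 windows above are on another basis. A match describes the letters in the window and is not evidence of binding in these cells.

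Most of the TNF response was alike in size between genotypes. In KO cells 846 genes rose and 694 fell with TNF, which is 3.89% and 3.19% of the measured genes. In WT cells 828 rose and 801 fell, 3.8% and 3.68%. Of these, 590 rose in both genotypes and 479 fell in both. No gene fell in KO and rose in WT cells, and 2 rose in KO and fell in WT cells. Across the 21775 genes the KO and WT responses, which share no array, had a Pearson r of 0.82 and a Spearman rho of 0.71, given as a description since genes are not independent.

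The difference of responses had a median of -0.02, quartiles of -0.17 and 0.17 and a standard deviation of 0.37 across genes. The response itself had a standard deviation of 0.60 in KO and 0.63 in WT cells. At least 2-fold higher were 327 genes, 1.5% of those measured, and at least 2-fold lower were 136 genes, 0.625%. Counted by probe, 485 were higher (1.61%) and 192 lower (0.636%). The genes just inside and just outside the rule had differences of 1.0 and 0.999 on the higher side and -1.0 and -0.997 on the lower side.

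The direction of the imbalance depended on how bright genes were and on the scale. Higher genes made up 70.6% of those past 2-fold, but 222 of the 327 lay in the dimmest of 4 equal groups of measured genes, whose differences had a standard deviation of 0.52. In the brightest of the 4, where it was 0.20, 7 were higher and 7 lower. Among the brighter 50% of genes 32 were higher and 37 lower, 46.4% higher. The spike-in control probes had themselves a mean difference of 0.26 (SD 0.13, 8 probes). Scaling to them lowered the all-gene median to -0.27 and gave 141 higher and 350 lower genes, 28.7% higher. With normexp background correction 65 were higher and 59 lower, 52.4% higher. That correction adds an offset of 50 to every spot, which by itself shrinks the differences of dim genes. List medians below are therefore to be set beside the median of all genes, -0.02. Counts of members above or below 0 hold only for the scaling used. Of the 463 genes past 2-fold, 85 were lincRNA probes named by coordinates only, 67 of the 327 higher and 18 of the 136 lower genes. Among all measured genes 13.8% were named in this way. Of the 463 genes, 62 had other measured probes, whose median had the same sign in 45 and was past 2-fold in 14.

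**Figure D1:**
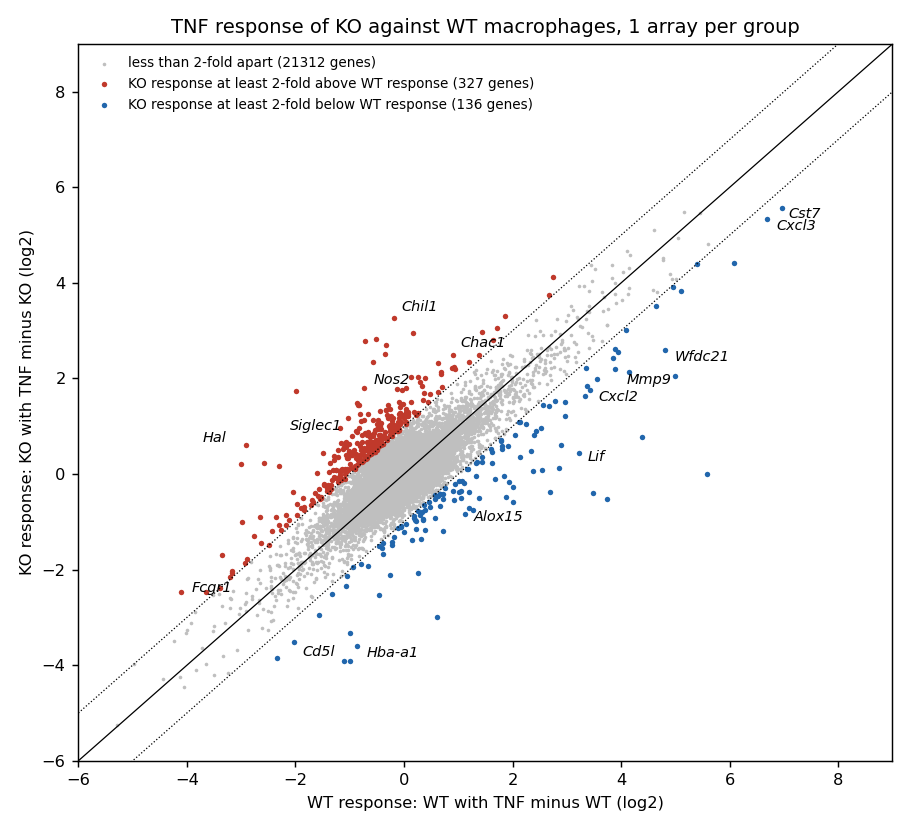
Change with TNF in KO macrophages (vertical axis, log2) against that in WT macrophages (horizontal axis, log2) for 21775 genes, 1 array per group. The solid line marks equal responses and the dotted lines 2-fold; 327 genes lie above the upper and 136 below the lower dotted line.

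By the direction of the 2 responses, the 327 higher genes fell into a few classes. In 84 the gene rose in KO cells without a 2-fold change in WT cells, and in 78 it fell in WT cells without a 2-fold change in KO cells. In 139 neither response reached 2-fold on its own. The 136 lower genes included 48 that rose only in WT cells, 27 that fell only in KO cells and 28 that rose in both. Of the 327 higher genes, 182 were at least 2-fold above WT in KO cells with TNF and not without it, and 68 were so in both conditions. Of the 136 lower genes, 48 were at least 2-fold below WT in KO cells with TNF only, and 34 were at least 2-fold above WT in KO cells without TNF only. Lower differences thus included genes with a higher starting level in KO cells as well as genes with a lower level with TNF.

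Steap4 itself could not be given a difference of responses. Its relative signal was 3.79 in KO cells with TNF, where the probe was not well above background, and 20.3 in KO cells. In WT cells it was 11.4 with TNF and 35.7 without. It was lower with TNF in both genotypes on these arrays. Signal above background in KO cells does not check the genotype label, since the sources used here do not say which part of the gene was deleted.

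The ELR CXC chemokines, which attract neutrophils through Cxcr2, were the list furthest below the other genes. All 5 measured members lay below 0, with a median of -1.31 against -0.02 for all genes, and 3 were lower by at least 2-fold. Cxcl2 had relative signals of 966 and 284 in KO cells with and without TNF, against 1356 and 126 in WT cells. It rose in both genotypes, but the rise was smaller in KO cells by 1.66 ± 0.29 on the log2 scale, and KO cells started above and ended below WT cells. Cxcl3 stood at 9109 and 226 in KO cells with and without TNF, and at 18620 and 180 in WT cells, a difference of -1.36 ± 0.29. Its rise was among the steepest of all genes in both genotypes, and the NF-kB letters of both promoters are shown above.

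Ppbp, a platelet and macrophage chemokine, went opposite ways, with 248 and 484 in KO cells with and without TNF, against 357 and 281 in WT cells, a difference of -1.31 ± 0.29. Cxcl5, the remaining member made by epithelium and macrophages, had 1091 and 1135 in KO cells, against 2504 and 1360 in WT cells, a difference of -0.94. Cxcl1 had 918 and 690 in KO cells with and without TNF, against 779.7 and 381 in WT cells. Its difference of -0.62 ± 0.29 did not reach 2-fold, and KO cells were the higher ones in each condition. The starting level without TNF was thus above WT in KO cells for Cxcl1, Cxcl2, Cxcl3 and Ppbp, and below WT for Cxcl5.

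Mature neutrophil markers also had differences mostly below 0. The 13 mature neutrophil markers summed to a relative signal of 50760 in KO cells with TNF and 45910 without, against 24970 and 17710 in WT cells, and 12 or 13 of them were well above background on each array. None of the 13 was below background on all 4 arrays. Of the 12 with a measured difference, 10 lay below 0, and their median was -0.67. The markers of neutrophil granule precursors did not share this, with 5 of 10 measured above 0, 5 below and a median of -0.001. They summed to 14490 in KO cells with TNF and 12440 without, against 6906 and 5383 in WT cells. Cxcl2 is itself strong on the spleen neutrophil arrays, at 9335 in KO and 5081 in WT, and Ppbp had 1279 and 801.5 there. Cxcl3 is not strong there, at 14.3 and 8.54, nor Cxcl5, at 2.57 and 2.08. With genes of other cells left out, as described below, 3 ELR CXC chemokines remained, with a median difference of -0.94. In samples of this kind fewer cells of a type and less RNA per cell cannot be told apart, and the part of neutrophils in these differences was not tested.

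The mature neutrophil markers were led by Mmp9, the gelatinase of neutrophil granules, which macrophages also make with TNF. Mmp9 had 1282 and 281 in KO cells with and without TNF, against 1911 and 129 in WT cells, a difference of -1.70 ± 0.29. The calprotectin subunits S100a8 and S100a9 had differences of -0.95 and -0.82. S100a9 had 16480 and 18300 in KO cells, against 962 and 606 in WT cells, so that KO cells were far higher in both conditions. Wfdc21 and Stfa2l1, which are neutrophil-rich genes for an antiprotease-like protein and a stefin, were also lower by 2-fold. Wfdc21 had 598 and 98.8 in KO cells with and without TNF, against 1051 and 37.4 in WT cells, a difference of -2.21 ± 0.29. Stfa2l1 had 1062 and 269 in KO cells, against 366 and 30.9 in WT cells, a difference of -1.58 ± 0.29. Mmp9, Wfdc21 and Stfa2l1 rose in both genotypes and started higher in KO cells. With TNF, Mmp9 and Wfdc21 ended below WT in KO cells and Stfa2l1 above.

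**Figure D2:**
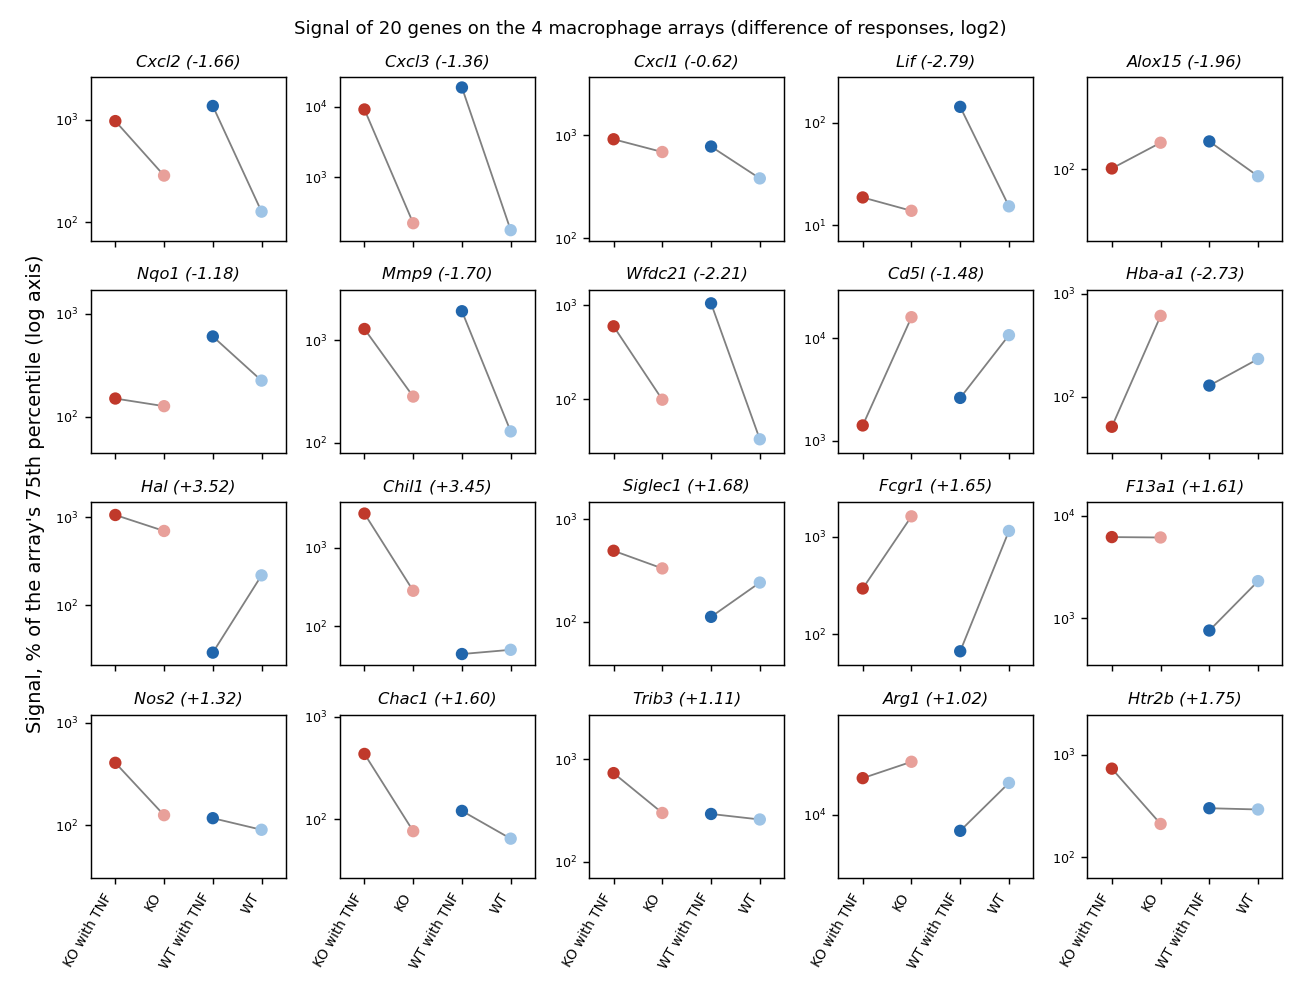
Relative signal of 20 genes (percent of the array's 75th percentile, log axis) on the KO with TNF, KO, WT with TNF and WT macrophage arrays, 1 point per array, with lines joining the arrays of a genotype. Cxcl2, Mmp9 and Wfdc21 climb less steeply in KO cells from a higher start. Chil1, Nos2, Chac1 and Htr2b climb at least 2-fold in KO cells only.

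Other TNF-induced attractants and cytokines varied in size and direction. Among 14 measured CC chemokines 6 were above and 8 below 0, with a median of -0.11, and 1 was lower by 2-fold. That gene was Ccl24, an eosinophil attractant, with 204 and 568 in KO cells with and without TNF, against 151 and 176 in WT cells, a difference of -1.26 ± 0.29. It fell in KO cells only, from a level that was above WT in cells without TNF. Ccl3, a monocyte and neutrophil attractant, had a difference of -0.75, and Ccl5, which attracts T cells, one of 0.81. The 7 measured CXC chemokines without the ELR motif had a median of -0.07, led on the lower side by Cxcl10 at -0.49.

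The 18 measured inflammatory cytokines and growth factors split evenly, with 9 above and 9 below 0. Lif, an IL-6 family cytokine, had the largest lower difference of the list, -2.79 ± 0.31. Its relative signals were 18.6 and 13.8 in KO cells with and without TNF, against 142 and 15.2 in WT cells. The gene thus rose in WT cells only, although it is dim on 3 of the 4 arrays. Tnf had 549 and 177 in KO cells, against 776 and 167 in WT cells, a difference of -0.58 ± 0.29 that did not reach 2-fold. Il6 had 197 and 137 in KO cells, against 208 and 173 in WT cells, and its difference of 0.26 was within its error of 0.29. Il1b rose strongly in both, with 7587 and 439 in KO cells, against 2143 and 150 in WT cells, and a difference of 0.27 ± 0.29.

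The genes next to the TNF receptor itself differed little. All 25 members of the list of NF-kB subunits and receptor feedback genes were measured and none passed 2-fold. Of them 20 lay below 0 and 5 above, with a median of -0.10 and a range from -0.48 to 0.06. In each genotype 10 of them rose. Nfkbia, the main NF-kB inhibitor, had 18560 and 5199 in KO cells with and without TNF, against 14770 and 4220 in WT cells, a difference of 0.03 ± 0.29. Tnfaip3, the feedback deubiquitinase A20, had a difference of -0.09. The member furthest from 0 was Tnip3, a partner of A20, at -0.48.

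Interferon-stimulated genes, which cells switch on against viruses, lay almost all slightly above 0. All 37 were measured, 35 lay above 0 and none passed 2-fold, with a median of 0.33 and a range from -0.04 to 0.98. The median response was 0.33 in KO and -0.10 in WT cells. Irf7, the transcription factor that amplifies interferon production, had 1102 and 941 in KO cells with and without TNF, against 398 and 672 in WT cells, a difference of 0.98 ± 0.29. Oas3, which senses double-stranded RNA, had 114 and 129 in KO cells, against 63.3 and 133 in WT cells, a difference of 0.89 ± 0.29. For both genes the KO and WT cells without TNF lay closer together than those with it. Mx1 and Ifit3, antiviral effectors, had differences of 0.83 and 0.72. With spike-in scaling the list's median was 0.07 and that of all genes -0.27. That scaling lowers every difference by the same 0.26, so it cannot change the gap between the list and all genes.

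Siglec1, a sialic acid receptor of macrophages that interferon induces, moved in opposite directions. It had 493 and 332 in KO cells with and without TNF, against 112 and 241 in WT cells, a difference of 1.68 ± 0.29, and its other measured probe had 1.49. Siglec1 fell in WT cells only.

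Several macrophage genes fell in WT cells and fell less, or not, in KO cells. Fcgr1, the high-affinity IgG receptor, had 294 and 1619 in KO cells with and without TNF, against 66.5 and 1146 in WT cells, a difference of 1.65 ± 0.29. It fell in both genotypes. F13a1, coagulation factor XIII A of monocytes and macrophages, had 6213 and 6157 in KO cells, against 762 and 2312 in WT cells, a difference of 1.61 ± 0.29. It was level in KO cells, and its other probe gave 2.07. C3ar1, a complement receptor, had 249 and 1108 in KO cells, against 121 and 1112 in WT cells, a difference of 1.04 ± 0.29. Cd72, an inhibitory lectin best known on B cells, had 187 and 339.7 in KO cells, against 56.8 and 256 in WT cells, a difference of 1.31 ± 0.29.

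B-cell markers, to which Cd72 is linked, summed to 1562 in KO cells with TNF and 2137 without, against 539 and 754 in WT cells, with Pax5 not above background on any macrophage array. Of the 9 measured, 7 had a difference above 0, with a median of 0.04. Macrophage markers were all present, 14 of 14 on each array, and summed to 212700 and 227400 in KO cells, against 184600 and 198500 in WT cells. The part of B cells in the value of Cd72 was not tested.

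The largest higher difference among brighter genes was that of Hal, histidine ammonia-lyase, which begins histidine breakdown. Hal had 1064 and 701 in KO cells with and without TNF, against 29.1 and 219.6 in WT cells, a difference of 3.52 ± 0.29. It fell in WT cells only, and its other probe gave 1.5. Chil1, a secreted chitinase-like protein, had 2728 and 283 in KO cells, against 44.2 and 50.1 in WT cells, a difference of 3.45 ± 0.29. It rose in KO cells only. It also had 1376 and 449 on the KO and WT spleen neutrophil arrays. Pianp, a ligand of the paired receptor PILR-alpha, had 1254 and 2506 in KO cells, against 78.7 and 625 in WT cells, a difference of 1.99 ± 0.29.

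Genes that rose in KO cells only included an enzyme of activated macrophages and surface receptors. Nos2, the inducible nitric oxide synthase, had 408 and 126 in KO cells with and without TNF, against 118 and 90.7 in WT cells, a difference of 1.32 ± 0.29. Htr2b, a serotonin receptor, had 735 and 212 in KO cells, against 302 and 294 in WT cells, a difference of 1.75 ± 0.29. Its level in WT cells hardly moved. Antxr1, a collagen-binding anthrax toxin receptor, had 305 and 69.7 in KO cells, against 243 and 151 in WT cells, a difference of 1.44 ± 0.29. For Antxr1 KO cells started below WT and ended a little above. Prr15, a proline-rich protein, did not reach 2-fold in either genotype but went opposite ways, with 175 and 116 in KO cells, against 108 and 166 in WT cells, a difference of 1.21 ± 0.29.

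Of the 14 measured classical activation genes, 1 was higher and 1 lower, with a median of -0.23. Beside Nos2 the lower one was Acod1, which makes itaconate, with 12400 and 592 in KO cells, against 11420 and 271 in WT cells, and a difference of -1.01 ± 0.29. Its levels with TNF were close in the genotypes, and KO cells started higher. Clec4e and Cd38, a lectin receptor and an NAD-consuming enzyme, likewise started higher in KO cells and had differences of -0.79 and -0.80. The 16 measured alternative activation genes had a median of -0.06, with 1 higher and 2 lower. Arg1, arginase, had 22700 and 32790 in KO cells with and without TNF, against 6955 and 20390 in WT cells, a difference of 1.02 ± 0.29. It fell in WT cells only.

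Alox15, a lipoxygenase of resident peritoneal macrophages, went opposite ways. It had 102 and 182 in KO cells with and without TNF, against 187 and 85.5 in WT cells, a difference of -1.96 ± 0.29. Cd5l, a secreted survival protein of resident macrophages, fell further in KO cells, with 1408 and 16010, against 2614 and 10690 in WT cells, a difference of -1.48 ± 0.29. The 11 resident macrophage markers had a median of -0.13 with 8 below 0. They summed to 17040 and 30750 in KO cells with and without TNF, against 22270 and 28700 in WT cells. St3gal5, which makes the ganglioside GM3, and Ednrb, an endothelin receptor, followed Cd5l. St3gal5 had 394 and 3055 in KO cells, against 1087 and 3213 in WT cells, a difference of -1.39 ± 0.29. Ednrb had 53.3 and 764 in KO cells, against 68.3 and 346 in WT cells, a difference of -1.5 ± 0.29.

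Targets of NRF2, the factor that answers oxidative stress, lay mostly below 0. All 22 were measured, 18 lay below 0, and the median was -0.30, with 8 rising in WT and 4 in KO cells. Nqo1, a quinone reductase, had 149.7 and 126 in KO cells with and without TNF, against 603 and 224 in WT cells, a difference of -1.18 ± 0.29, and was the only member past 2-fold. Srxn1, sulfiredoxin, had 9327 and 6285 in KO cells, against 19460 and 8446 in WT cells, a difference of -0.64 ± 0.29. WT cells were higher in both conditions for these genes. Hmox1, haem oxygenase, had a difference of -0.10.

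The 17 measured genes of iron handling and the STEAP family had a median of -0.29, with 13 below 0 and none past 2-fold. Heph, a ferroxidase, was the lowest at -0.48 and dim, and Steap3 had -0.22. Fth1, the ferritin heavy chain, had 92250 and 81610 in KO cells with and without TNF, against 77480 and 71290 in WT cells, a difference of 0.06 ± 0.29.

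The integrated stress response, driven by the factor ATF4, held 2 higher genes of 17 measured, against 1.5% of all measured genes. Chac1, which degrades glutathione, had 434 and 76.6 in KO cells with and without TNF, against 121 and 64.7 in WT cells, a difference of 1.60 ± 0.29. Trib3, a pseudokinase, had 732 and 299 in KO cells, against 292 and 258 in WT cells, a difference of 1.11 ± 0.29. Both reached a 2-fold rise in KO cells only, although Chac1 had a response of 0.90 in WT cells. Chac1 also had 145.6 and 546.5 on the KO and WT spleen arrays. Of the 17, 6 rose in KO and 1 in WT cells, against 3.89% and 3.8% of all measured genes. The list's median response was 0.73 in KO and 0.55 in WT cells. Atf4 itself had a difference of 0.20, and the list's median was 0.14, or -0.12 with spike-in scaling.

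Cell cycle genes also lay mostly below 0. Of 23 measured, 21 lay below 0, none passed 2-fold and the median was -0.25. Aurkb, a mitotic kinase, and Cdk1, the main mitotic cyclin-dependent kinase, had differences of -0.79 and -0.64, while Mki67, a proliferation marker, had 0.54. Mesothelial and fibroblast markers likewise had 9 of 9 measured below 0 and a median of -0.28. These markers summed to 12230 in KO cells with TNF and 15400 without, against 25620 and 27490 in WT cells. The 15 housekeeping genes had a median of -0.03 and a range from -0.39 to 0.12.

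**Figure D3:**
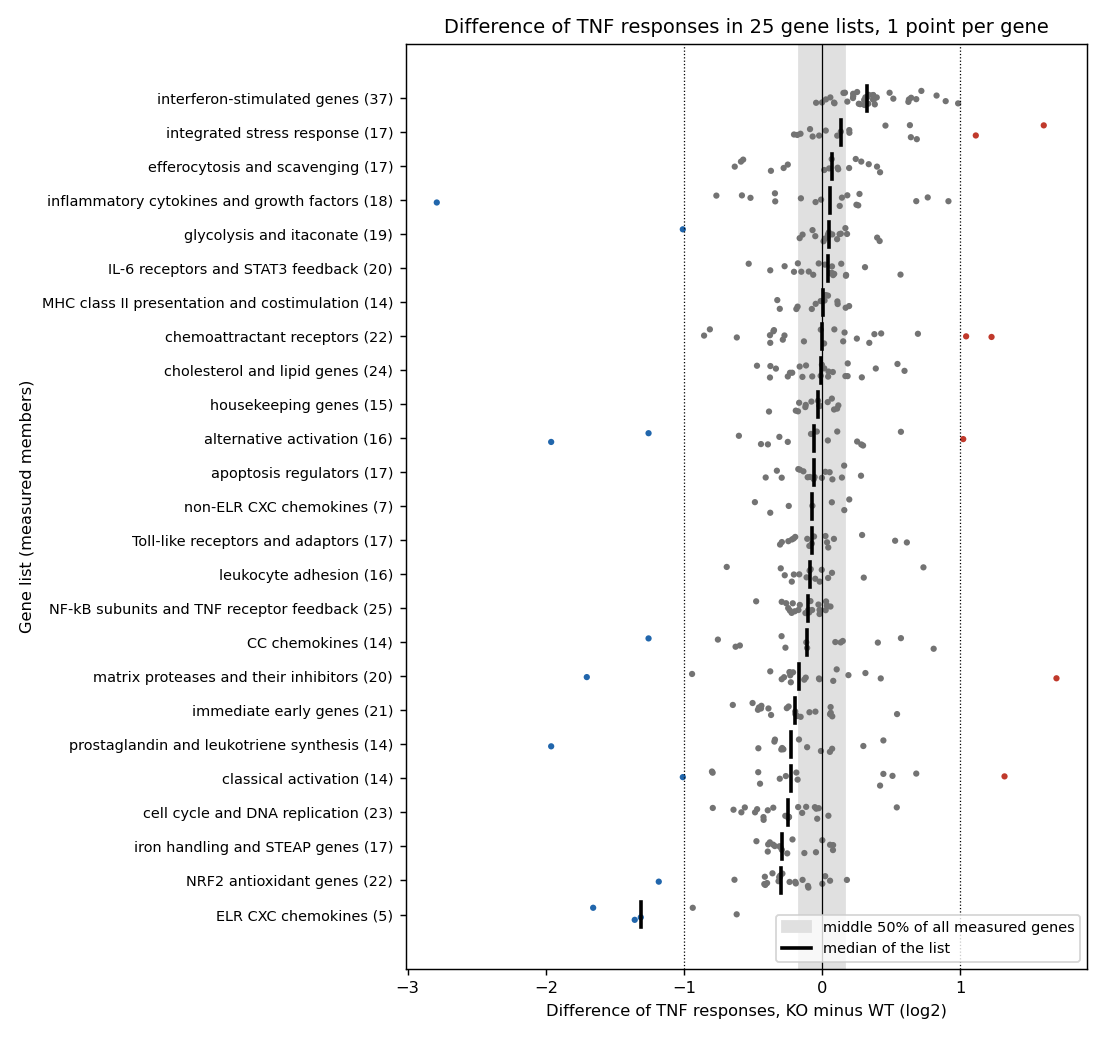
Difference of TNF responses, KO minus WT (log2), for the measured members of 25 gene lists, 1 point per gene, with the list's median as a bar and the middle 50% of all genes in grey. The ELR CXC chemokines stand lowest with a median of -1.31 and the interferon-stimulated genes highest at 0.33.

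The remaining lists stood near all genes. Glycolysis and itaconate genes had a median of 0.05, cholesterol and lipid genes -0.01, MHC class II and costimulation genes 0.00 and receptors for chemoattractants 0.00. IL-6 receptor and STAT3 feedback genes had 0.04, efferocytosis and scavenging genes 0.07, apoptosis regulators -0.06, Toll-like receptors -0.08 and adhesion genes -0.09. None of these lists but 2 held a gene past 2-fold: Acod1 among the glycolysis and itaconate genes, and C3ar1 and Ackr3 among the receptors. Ackr3, a scavenging receptor for CXCL12, had 57.8 and 55.7 in KO cells with and without TNF, against 14.0 and 31.5 in WT cells, a difference of 1.23 ± 0.30. Immediate early genes lay lower, at -0.20 with 16 of 21 below 0 and none past 2-fold, and matrix proteases at -0.17. In that list Mmp2, a gelatinase of fibroblasts, opposed Mmp9 and was dim. It had 42.8 and 8.52 in KO cells, against 51.0 and 32.9 in WT cells, a difference of 1.70 ± 0.31. KO cells lay below WT in both conditions for Mmp2, far more so without TNF. Prostaglandin and leukotriene genes had a median of -0.23, and Alox15 was their one member past 2-fold.

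A further pair of genes were lower by 2-fold and lay outside the lists. Cst7, a cystatin of immune cells, had 1075 and 22.5 in KO cells with and without TNF, against 1213 and 9.76 in WT cells, a difference of -1.38 ± 0.30. Its levels with TNF were close in the genotypes. Adora2b, an adenosine receptor, had 360.1 and 203 in KO cells, against 623 and 118 in WT cells, a difference of -1.58 ± 0.29, and its other probe gave -1.08.

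Haemoglobin genes had the largest lower differences among the brighter genes. Hba-a1, an alpha-globin gene, had 50.7 and 612 in KO cells with and without TNF, against 128 and 233 in WT cells, a difference of -2.73 ± 0.29. Its near-identical copy Hba-a2, which the probe design may not separate from it, had 295 and 2951 in KO cells, against 509 and 1018 in WT cells, a difference of -2.32 ± 0.29. The 8 erythroid markers on the array summed to 70.0 in KO cells with TNF and 639 without, against 144 and 258 in WT cells. Hba-a1 made up most of this sum, and the high value was that of KO cells without TNF. The other measured erythroid markers went the other way. Epor, the erythropoietin receptor, and Slc4a1, the red-cell anion exchanger, both had differences of 0.53, and the median of the 3 was 0.53. Neither Epor nor Slc4a1 was among the brighter genes. Hbb-bt, a dim beta-globin gene given under other observations, was lower by more than 2-fold. On the spleen arrays Hba-a2 had 136500 in KO and 104800 in WT, and the part of red cells in these differences was not tested.

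**Figure D4:**
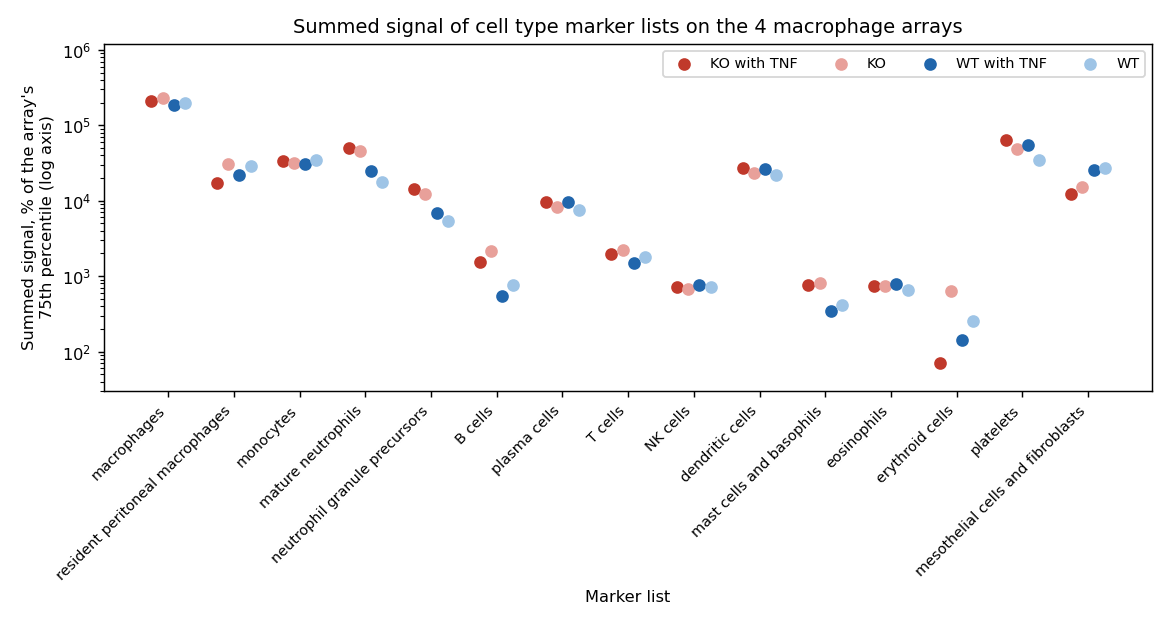
Summed relative signal of 15 marker lists (percent of the array's 75th percentile, log axis) on the KO with TNF, KO, WT with TNF and WT macrophage arrays. Mature neutrophil and B-cell markers are higher on both KO arrays, and mesothelial markers lower, than on the WT arrays.

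Single markers past 2-fold in other lists were dim. Gzma, a granzyme of NK cells, had 16.5 and 15.9 in KO cells with and without TNF, against 8.10 and 16.9 in WT cells, a difference of 1.11 ± 0.32. Ear1, an eosinophil-associated ribonuclease gene with near-identical copies, had 15.7 and 64.1 in KO cells, against 3.80 and 34.01 in WT cells, a difference of 1.13 ± 0.36. The summed signals of NK-cell markers were 712 and 686 in KO cells with and without TNF, against 772 and 721 in WT cells. Those of eosinophil markers were 735 and 732 in KO cells, against 795 and 662 in WT cells. Neither list's sum differed between any 2 arrays by as much as these single genes did.

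The counts were also taken without genes that neutrophil preparations carry. Genes whose WT neutrophil signal was at least 2-fold above that of WT macrophages with TNF were left out, together with the marker genes of other cells. This left 17155 of the 21775 genes and 88 higher ones, 45.1% of those still past 2-fold. A low signal on the WT array with TNF both raises the difference and removes the gene, so that this split is partly set by the filter. The mean of the 4 macrophage arrays was therefore also used, a choice made after seeing the data, and this left 17672 genes with 132 higher and 99 lower. Of the 41 genes named by rule, 25 stayed in under this second choice, among them Cxcl1, Cxcl3, Nqo1, Alox15, Hal, Siglec1, Fcgr1, Nos2, Htr2b and Arg1. Cxcl2, Mmp9, Wfdc21, Stfa2l1, Lif, Chil1, F13a1, Cd72, Chac1 and both alpha-globin genes were among those left out.

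Of the 37 genes past 2-fold among these, 30 stayed past it with spike-in scaling and 29 with normexp, whose offset shrinks differences of dim genes. Ackr3, Arg1, C3ar1, Ear1 and Gzma dropped below 2-fold under each of the 2, Prr15 and Trib3 with spike-in scaling, and Acod1, Cst7 and Mmp2 with normexp. Ear1 also dropped below it with quantile normalization and Acod1 with loess. None of the 37 changed sign under any of the alternatives run. Several of these could not change a sign. Settings that only choose which genes are counted left the values unchanged. Spike-in scaling and median centring shift all differences alike by less than 2-fold.

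**Figure D5:**
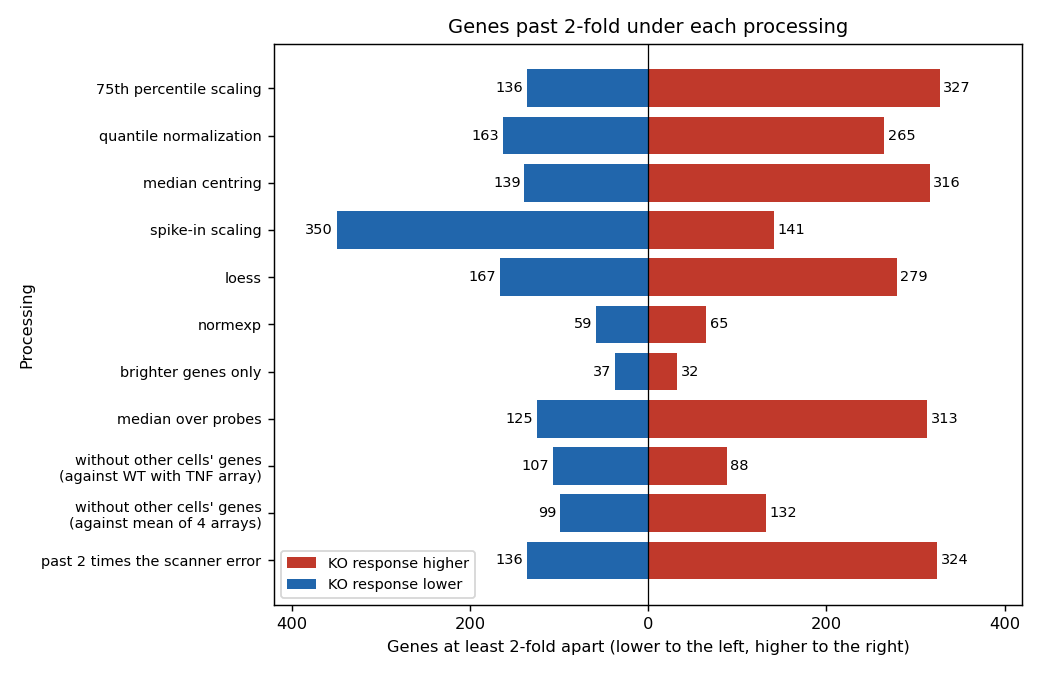
Genes at least 2-fold lower (left bars) and higher (right bars) in the difference of responses under the scaling used and 10 alternatives of processing. Higher genes outnumber lower ones with 75th percentile scaling (327 and 136), and lower ones outnumber higher ones with spike-in scaling (350 and 141).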

How the data were processed

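Total RNA was labelled with Cy3 and hybridised to 1-colour Agilent arrays. Per the file headers, the authors quantified the images with Agilent Feature Extraction 10.7.3.1, and the deposited processed intensity is linear, background-subtracted and detrended within the array. All arrays lay on 1 slide scanned once, so slide and scan could not be tested. Here log2 intensity minus each array's 75th percentile over gene probes was used (an intensity of 338 to 490 on the macrophage arrays), outlier spots were left out and repeated spots averaged. A gene took its brightest probe, named through RefSeq (GRCm38.p6) accessions or symbols where possible. The calculation was tested on simulated data.

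Named genes were Cxcl1, Cxcl2, Il6, Tnf, Il1b and Steap4, the 12 largest higher and 12 largest lower among brighter genes with approved-style symbols whose other probes had the same sign and a median of at least 0.5, and up to 2 per list and direction past 2-fold. Where another probe is quoted for 1 of these largest genes, its same sign was a condition of the choice. No brighter gene had 2-fold responses of opposite direction. Other examples are list members chosen after their values were seen. Members and lists were chosen with earlier results of these data known. Alternatives changed scaling, background correction, filters, probe summary, threshold and genes of other cells. With 1 array per group, the number of arrays limits the precision.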

Additional observations from a re-analysis of the deposited data

Results flagged for a closer look

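Each named gene below was past 2-fold, with KO and WT responses of opposite sign and each larger than the median error of 1 response, 0.20 on the log2 scale. With 1 array per group, the difference between the genotypes was not tested. Hal had a difference of 3.52, with a response of 0.60 in KO and -2.92 in WT cells. Siglec1 had 1.68, with 0.57 in KO and -1.11 in WT cells. Prr15 had 1.21, with 0.59 in KO and -0.62 in WT cells. Alox15 had -1.96, with -0.83 in KO and 1.13 in WT cells. Ppbp had -1.31, with -0.97 in KO and 0.35 in WT cells.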

How the results depend on the processing

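Counts of genes past 2-fold, 327 higher and 136 lower, stayed within 1.5 times under quantile normalization, median centring, loess, the median over probes and the filter on scanner error. That filter kept 460 of the 463 genes. For most genes its cut lies below 2-fold, so it could hardly change the counts. Higher and lower genes numbered 141 and 350 with spike-in scaling, 65 and 59 with normexp, and 2384 and 1488 without the filter on dim probes. They numbered 32 and 37 among brighter genes, and 63 and 40 past 3-fold. Leaving out genes of other cells gave 88 higher genes, or 132 by the mean of the 4 macrophage arrays, an alternative added after seeing the data, and the lower counts stayed within 1.5 times. Of the 463 genes, 277 were still past 2-fold with spike-in scaling, in either direction, and 120 with normexp.

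Of the list medians at least as large as the spike-in SD of 0.13, those of the integrated stress response (-0.12), macrophages (-0.11), monocytes (-0.072) and NK cells (-0.036) changed sign with spike-in scaling. So did those of NK cells (-0.14) and erythroid cells (-2.73) among brighter genes, from 2 genes and 1 gene, and platelets (0.14) without the dim filter. Spike-in scaling lowers every difference by the same 0.26, the mean difference of the spike-in probes. Medians between 0 and that amount must therefore change sign under it. The other changes came with a change in which genes were counted. ELR CXC chemokines ranged from -1.57 to -0.94, interferon-stimulated genes from 0.07 to 0.37 and NRF2 targets from -0.55 to -0.24. No paired analysis was possible because each group has 1 array, and for the same reason no array could be left out. Dim genes limit most higher calls: 222 of 327 lay in the dimmest of 4 equal groups.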

Other observations

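Among dim genes, outside the rule for named genes and picked after their values were seen, the largest lower difference was that of Prss51, a serine protease, with relative signals of 6.04 and 6.00 in KO cells with and without TNF, against 203 and 4.23 in WT cells (-5.57 ± 0.43). Il1f9, an IL-1 family cytokine also called IL-36 gamma, had 74.9 and 17.98 in KO cells, against 189 and 5.90 in WT cells (-2.94 ± 0.31). Nrcam, a neuronal adhesion molecule, had 31.5 and 249 in KO cells, against 56.2 and 36.8 in WT cells (-3.60 ± 0.29). Hbb-bt, a beta-globin gene, had 24.99 and 374 in KO cells, against 46.3 and 91.8 in WT cells (-2.92 ± 0.29). On the higher side, Smtnl2, a smoothelin-like protein, had 16.2 and 4.88 in KO cells, against 6.09 and 24.1 in WT cells (3.72 ± 0.36).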
